A study of Saccharomyces cerevisiae with 12 samples.

Results

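The genes described here are 9 genes of mitochondrial inheritance in budding yeast: MMR1, YPT11 and MYO2, which act in bud-directed transport, NUM1 and MDM36, which act in cortical anchoring, FZO1 and MGM1, which act in membrane fusion, and DNM1 and FIS1, which act in fission. They were taken by gene symbol from the FPKM tables (fragments mapped per kilobase, corrected for how many each library mapped) of all 12 libraries, and are 9 of the 7126 genes listed in each. MMR1 was put among them because it is a candidate target of the transcriptional repressor Yox1 in the study. The study chose its candidates partly because their mRNA was lower on YOX1 overexpression in this same experiment.

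The study asked which transcripts change when YOX1 is overexpressed in cells under replication stress. The YOX1-overexpressing strain was the BY4741 wild-type strain with the plasmid pBY011-YOX1, in which a galactose-inducible GAL1-10 promoter drives YOX1, and the control strain was the same wild-type strain with the pBY011 control vector. Both were grown in synthetic medium lacking uracil, with raffinose as the carbon source, and were sampled at 0 h, before any addition, and 2 h and 4 h after galactose (2%) and hydroxyurea (HU, an inhibitor of ribonucleotide reductase, 200 mM) were added together. Each of the 6 combinations of strain and time had 2 libraries. Because galactose and HU were added at once, a change over time reflects both additions, and the vector is isolated by setting the strains side by side at one time.

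Budding yeast cells cannot make mitochondria anew, so each bud must receive part of the mother's network. The class V myosin Myo2 walks along actin cables into the bud and pulls mitochondria with it, with Mmr1 and Ypt11 linking it to the organelle, while Num1 and Mdm36 tether other mitochondria to the mother's cortex so that she keeps a share. Fusion and fission set the shape of the network that is being divided. MMR1 is itself tied to the bud cycle, since its mRNA is carried into the bud. Yox1 is a homeodomain protein that represses cell cycle genes at promoters bound by the MADS-box factor Mcm1.

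YOX1 mRNA followed the labels. It stood at 3862 and 3312 FPKM at 2 h and at 2599 and 2458 FPKM at 4 h in the YOX1-overexpressing strain, against 30.9 and 37.5 FPKM at 2 h and 40.8 and 40.7 FPKM at 4 h in the control strain. Before galactose it was already higher, at 91.3 and 90.9 FPKM in YOX1 vector libraries and 30.8 and 29.8 FPKM in control vector libraries. The implied depth was 9660000 to 18060000 fragments per library. Transcripts of the MATa genes STE2, MFA1 and BAR1 were at 15.8 FPKM or more in every library, and those of the MATalpha genes STE3 and MF(ALPHA)1 were at 7.60 FPKM or less. Of 2 genes that BY4741 lacks, LEU2 was listed at 0 in all 12 libraries and MET17 at 0 to 0.391 FPKM, with 1 library at 0. The study's methods name the replicates of this experiment biological, and with 2 libraries per group p-values measure the spread between these libraries only. RNA came from whole cultures, so that fewer cells of a cell cycle stage and less RNA per cell cannot be told apart.

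All 9 genes had a completed estimate in all 12 libraries and passed the filter on low values. In the coordinates of the files (sacCer3), MMR1 (YLR190W) spans bases 535214 to 536689 of chromosome XII, YPT11 (YNL304W) 60297 to 61550 of chromosome XIV, MYO2 (YOR326W) 925721 to 930445 of chromosome XV, NUM1 (YDR150W) 755628 to 763874 of chromosome IV and MDM36 (YPR083W) 704854 to 706593 of chromosome XVI. FZO1 (YBR179C) spans 586547 to 589114 of chromosome II, MGM1 (YOR211C) 738924 to 741569 of chromosome XV, DNM1 (YLL001W) 147890 to 150163 of chromosome XII and FIS1 (YIL065C) 241308 to 241775 of chromosome IX. The libraries do not keep the strand, and 2 of the genes share bases with an open reading frame on the map. YPT11 shares 41 bases with YNL303W, which was at 44.5 to 63.9 FPKM. NUM1 shares 635 bases with YDR149C, which was at 0.115 to 1.02 FPKM.

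The sequence before the MMR1 start codon is shown because MMR1 is the member whose level passed the test between the strains, and that of FZO1 because it is the member whose window holds a homeodomain-type match. Both are the 250 bases before and the 50 bases from the start codon onward, read from the RefSeq genome of release R64 on the coding strand, at chrXII:534964-535263 (plus strand) for MMR1 and chrII:589065-589364 (minus strand) for FZO1. Capitals mark the start codon and the matches to the motifs that were searched.
MMR1: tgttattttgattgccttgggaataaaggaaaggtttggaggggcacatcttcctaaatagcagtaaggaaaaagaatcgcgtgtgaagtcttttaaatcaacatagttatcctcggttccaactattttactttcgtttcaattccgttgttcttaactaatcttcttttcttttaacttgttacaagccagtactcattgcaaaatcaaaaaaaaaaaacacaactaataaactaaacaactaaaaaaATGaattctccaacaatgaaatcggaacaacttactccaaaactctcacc
FZO1: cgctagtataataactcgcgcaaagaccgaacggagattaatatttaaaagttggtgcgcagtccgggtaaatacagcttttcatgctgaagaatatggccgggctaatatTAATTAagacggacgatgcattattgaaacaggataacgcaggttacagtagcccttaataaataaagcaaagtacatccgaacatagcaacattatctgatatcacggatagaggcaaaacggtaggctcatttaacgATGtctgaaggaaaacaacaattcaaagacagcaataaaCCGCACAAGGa

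The search covered both strands and 4 motifs: CC, then any 6 bases, then GG (the core of an Mcm1 site), TAATTA and TAATTG (homeodomain-type letters) and GTAAACA (forkhead). Of 6020 promoter windows of the same length, 29.1% held the Mcm1 core, 15.5% TAATTA, 24.3% TAATTG and 6.53% GTAAACA. The MMR1 window held none of the 4, and none was found in the 500 bases before its start codon either, where 49.1% of 6019 genes held the Mcm1 core, 24.9% TAATTA, 34.6% TAATTG and 10.3% GTAAACA. Of the other members, all but MDM36 held an Mcm1 core in those 500 bases, MYO2, FZO1 and MGM1 held TAATTA, and MYO2 held TAATTG on the other strand, overlapping its TAATTA. The FZO1 window of 300 bases held TAATTA, which begins 139 bases before the start codon, and an Mcm1 core that begins at base 40 of the coding sequence. MGM1 and FIS1 held 2 Mcm1 cores each and DNM1 held 1, and YPT11, MYO2, NUM1 and MDM36 held no match in the shorter window. TAATTA and the Mcm1 core read alike on both strands, and no match in the shorter window overlapped another kind of match. A match says only that the letters are present, and its absence only that they are not in this window.

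Per kilobase of transcript, FIS1 was the most abundant of the 9 mRNAs, with a mean of 173 scaled FPKM over the 12 libraries, and YPT11 the least abundant, at 17.2. In between lay MYO2 at 87.1, NUM1 at 73.4, MMR1 at 72.7, DNM1 at 57.2, MGM1 at 39.4, FZO1 at 31.1 and MDM36 at 21.9 (scaled FPKM are FPKM divided by a factor for each library, and these are means over groups that differ). NUM1 and MMR1 had nearly the same mean, but they varied very differently: MMR1 ranged over 2.93-fold between its lowest and highest library, the widest range of the 9, and NUM1 over 1.33-fold. FIS1 came next with 1.73-fold, and MDM36 varied least, with 1.13-fold. The intervals of NUM1, with 8247 bases, implied only 1754 to 2050 fragments per library. Those of MYO2, with 4725 bases, implied 5358 to 11201. The level of NUM1 is thus less sure than its length and FPKM would imply, and the cause was not tested.

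**Figure D1:**
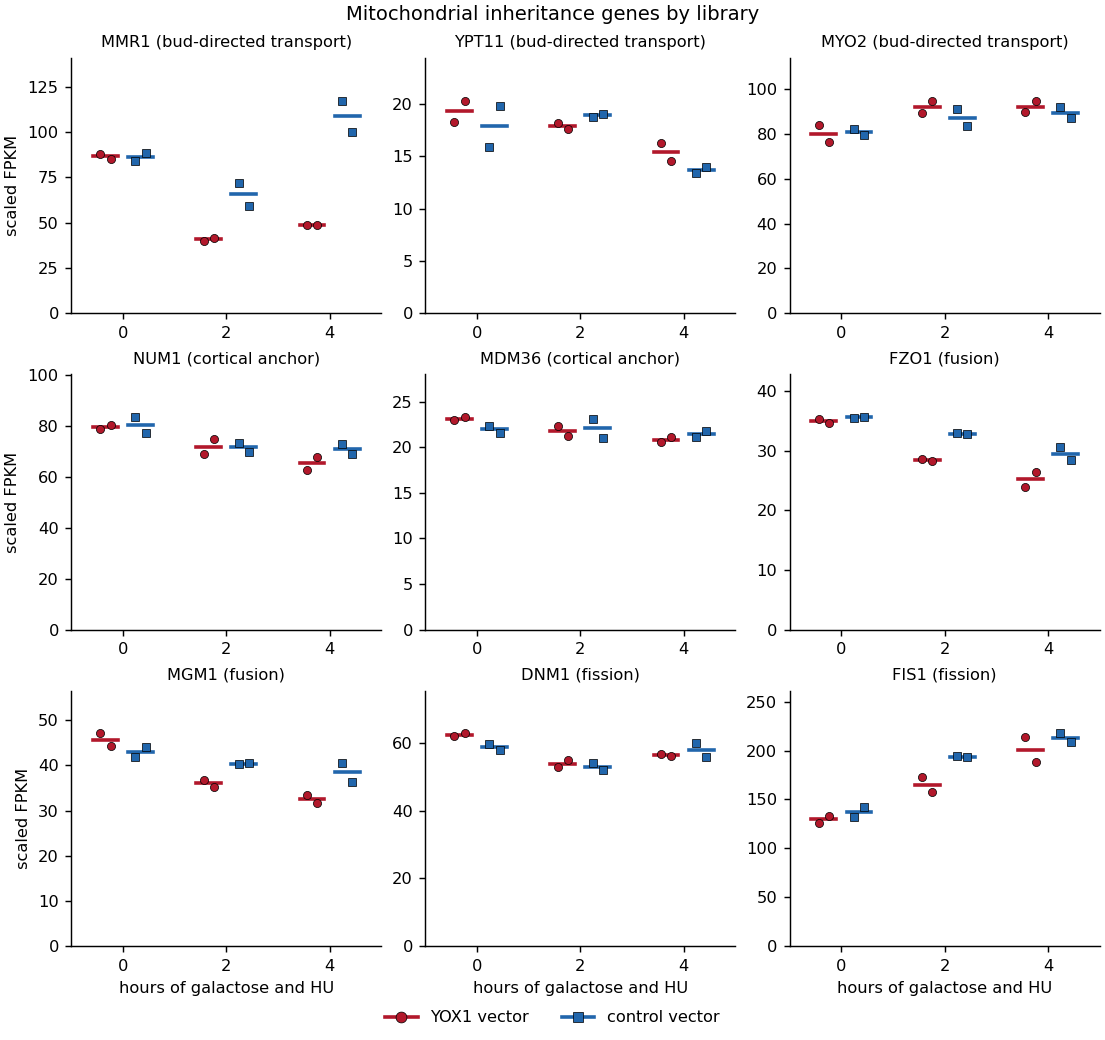
Scaled FPKM (vertical axis, linear and separate for each gene) of the 9 genes at 0 h, 2 h and 4 h. Each library is 1 point, and a short line marks each group mean for the YOX1 vector and the control vector. MMR1 stands apart at 4 h, where the YOX1 vector libraries were at 48.8 and 48.5 scaled FPKM and the control vector libraries at 117 and 99.8 scaled FPKM.

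MMR1, whose product links Myo2 to mitochondria, was the only one of the 9 genes whose difference between the strains passed the test. The study chose MMR1 partly for a lower level with the YOX1 vector in these data. Its calls between the strains and its rank among all genes therefore partly follow from that choice. At 0 h it was at 93.7 and 87.6 FPKM in the YOX1-overexpressing strain and at 85.2 and 90.7 FPKM in the control strain, so that the libraries overlapped. At 2 h it was at 40.8 and 43.1 FPKM in the YOX1-overexpressing strain, against 71.9 and 59.9 FPKM in the control strain. At 4 h it was at 46.9 and 47.5 FPKM in the YOX1-overexpressing strain, against 112 and 92.9 FPKM in the control strain. After induction the groups no longer overlapped, and the gap at 4 h was larger than the spread between the libraries of either strain.

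As scaled FPKM, MMR1 averaged 86.5 ± 1.72 at 0 h in the YOX1-overexpressing strain and 86.2 ± 2.91 in the control strain, 40.7 ± 0.896 in the YOX1-overexpressing strain and 65.6 ± 8.93 in the control strain at 2 h, and 48.7 ± 0.197 in the YOX1-overexpressing strain and 109 ± 12.4 in the control strain at 4 h (SD, n = 2 each). Its level with the YOX1 vector was thus 62.0% of that with the control vector at 2 h and 44.9% at 4 h. Differences on the log2(scaled FPKM + 1) scale, tested in one limma model over all 12 libraries with Benjamini-Hochberg adjustment over 6887 genes, were 0.00 at 0 h (95% interval -0.22 to 0.23), -0.67 at 2 h (-0.90 to -0.44; adjusted p = 0.0139) and -1.14 at 4 h (-1.37 to -0.91; adjusted p = 0.000415). Genes with a lower difference than MMR1 numbered 219 of 6887 at 2 h, or 3.18%, and 108 at 4 h, or 1.57%. The call at 2 h was lost when YOX1 vector replicate 1 (log2 difference -0.65, adjusted p = 0.104), YOX1 vector replicate 2 (-0.69, adjusted p = 0.0808) or control vector replicate 1 (-0.53, adjusted p = 0.0643) of that time was left out, whereas the call at 4 h held in all 12 such limma fits. With only the 4 libraries of a time in the fit, neither difference passed (adjusted p = 0.197 at 2 h and 0.0723 at 4 h).

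None of the 9 genes passed the threshold at 0 h, where none had an unadjusted p under 0.05 either and 0.029% of all genes tested were called. At 2 h, 1 of 9 (MMR1) was lower in the YOX1-overexpressing strain, beside 1.68% of all genes tested called lower and 0.261% called higher. At 4 h again 1 of 9 (MMR1) was lower, beside 4.31% called lower and 1.92% called higher. Before adjustment, 4 of 9 were lower at p under 0.05 in limma at 2 h (MMR1, FZO1, MGM1 and FIS1). At 4 h 3 of 9 were (MMR1, FZO1 and MGM1), and 0 were higher at either time. Of the 6887 genes tested, 488 were lower and 314 higher at that threshold at 2 h, and 732 and 677 at 4 h. The median log2 difference of the 9 genes was 0.00 at 0 h, -0.08 at 2 h and -0.09 at 4 h, beside medians over all genes of -0.01, 0.00 and 0.01. Since MMR1 was chosen partly for this direction, the counts of 1 of 9 are not separate support.

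**Figure D2:**
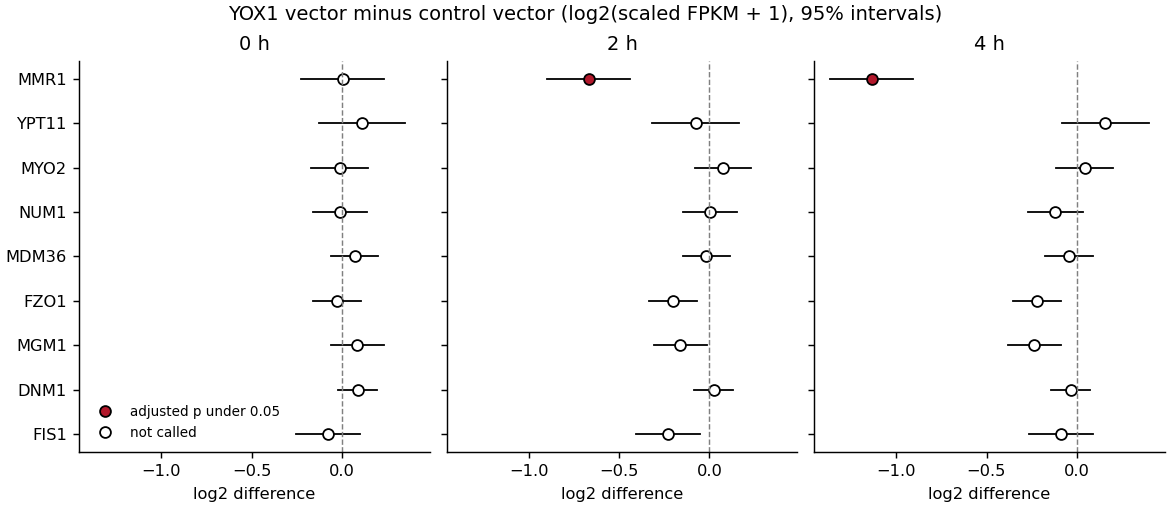
Log2 difference in scaled FPKM + 1, YOX1 vector minus control vector, for the 9 genes at 0 h, 2 h and 4 h, as points with 95% intervals from the limma model over 12 libraries and a line at no difference. MMR1 lies near 0 at 0 h, at -0.67 at 2 h and at -1.14 at 4 h, while the other 8 genes lie between -0.23 and 0.16 at every time.

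Neither of the other genes of bud-directed transport passed the test between the strains. YPT11, a Rab-type GTPase that binds the Myo2 tail and promotes mitochondrial movement into the bud, had log2 differences between the strains of 0.11, -0.08 and 0.16 at 0 h, 2 h and 4 h, none of which passed the test. At 4 h it was at 15.6 and 14.3 FPKM in YOX1 vector libraries and at 12.7 and 13.0 FPKM in control vector libraries. The 95% interval of that difference ran from -0.08 to 0.40, and YPT11 rests on only 206 to 404 implied fragments per library, the fewest of the 9 genes. MYO2, the motor, was at 86.2 and 92.8 FPKM in YOX1 vector libraries and at 87.4 and 81.1 FPKM in control vector libraries at 4 h. Its libraries overlapped at all 3 times and its log2 differences were -0.01, 0.08 and 0.04, with a 95% interval of -0.11 to 0.20 at 4 h.

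Within single libraries, the ratio of MMR1 to MYO2 needs no scaling between libraries. It was 0.449 and 0.435 at 2 h and 0.544 and 0.512 at 4 h in the YOX1-overexpressing strain, against 0.789 and 0.709 at 2 h and 1.28 and 1.15 at 4 h in the control strain. At 0 h it was 1.04 and 1.11 in the YOX1-overexpressing strain and 1.02 and 1.11 in the control strain. The adaptor mRNA was therefore below that of the motor in all 4 induced YOX1 vector libraries, and in the control strain below it in both libraries at 2 h and above it in both at 4 h.

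The genes of cortical anchoring did not pass the test between the strains at any time. NUM1, the large cortical protein that forms the anchor, was at 60.5 and 66.4 FPKM in YOX1 vector libraries and at 69.5 and 64.2 FPKM in control vector libraries at 4 h, so that the deposited values overlapped. The scaled values used in the test did not, at 63.0 and 67.8 with the YOX1 vector against 73.1 and 68.9 with the control vector. Its log2 differences were -0.01, 0.01 and -0.12 at 0 h, 2 h and 4 h. MDM36, a partner of Num1 in the anchor, was at 19.8 and 20.6 FPKM in YOX1 vector libraries and at 20.1 and 20.3 FPKM in control vector libraries at 4 h, with log2 differences of 0.07, -0.02 and -0.04. For MDM36 the 95% interval at 4 h was -0.17 to 0.09, and for NUM1 it was -0.27 to 0.03.

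Both fusion genes lay lower with the YOX1 vector at 2 h and 4 h, by amounts that did not pass the test. FZO1, the dynamin-related GTPase of outer membrane fusion, was at 29.1 and 29.5 FPKM in YOX1 vector libraries and at 33.0 and 33.1 FPKM in control vector libraries at 2 h. At 4 h it was at 23.0 and 25.9 FPKM in YOX1 vector libraries and 29.1 and 26.4 FPKM in control vector libraries. The groups did not overlap at either time, and the log2 differences were -0.20 (adjusted p = 0.185 by limma and Benjamini-Hochberg) at 2 h and -0.22 (adjusted p = 0.0680) at 4 h. The scaled FZO1 values did not overlap at 0 h either, with a log2 difference of -0.03. MGM1, its counterpart at the inner membrane, was at 37.5 and 36.8 FPKM in YOX1 vector libraries and 40.4 and 40.9 FPKM in control vector libraries at 2 h. Its values at 4 h were 32.1 and 31.0 FPKM in YOX1 vector libraries and 38.6 and 33.9 FPKM in control vector libraries. These groups did not overlap either, and the log2 differences were -0.16 (adjusted p = 0.388) at 2 h and -0.23 (adjusted p = 0.0795) at 4 h. At 0 h the scaled MGM1 values also did not overlap, and there MGM1 was higher with the YOX1 vector (0.09). Groups of 2 libraries that do not overlap are therefore not by themselves support for a difference. The 95% intervals at 4 h, -0.35 to -0.09 for FZO1 and -0.38 to -0.09 for MGM1, did not include 0, before any adjustment.

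Neither fission gene passed the test between the strains. DNM1, the dynamin-related GTPase that constricts mitochondria, was at 54.6 and 55.1 FPKM in YOX1 vector libraries and at 57.1 and 52.2 FPKM in control vector libraries at 4 h, and its log2 differences at 0 h, 2 h and 4 h were 0.09, 0.02 and -0.03 (95% interval -0.14 to 0.07 at 4 h). FIS1, which anchors the fission machinery in the outer membrane, was at 176 and 164 FPKM in YOX1 vector libraries and at 195 and 195 FPKM in control vector libraries at 2 h. Those libraries did not overlap, but the log2 difference of -0.23 did not pass the test (adjusted p = 0.274 by limma and Benjamini-Hochberg), while at 4 h the libraries overlapped, with 205 and 184 FPKM in the YOX1-overexpressing strain and 207 and 195 FPKM in the control strain (log2 difference -0.09, 95% interval -0.27 to 0.09).

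**Figure D3:**
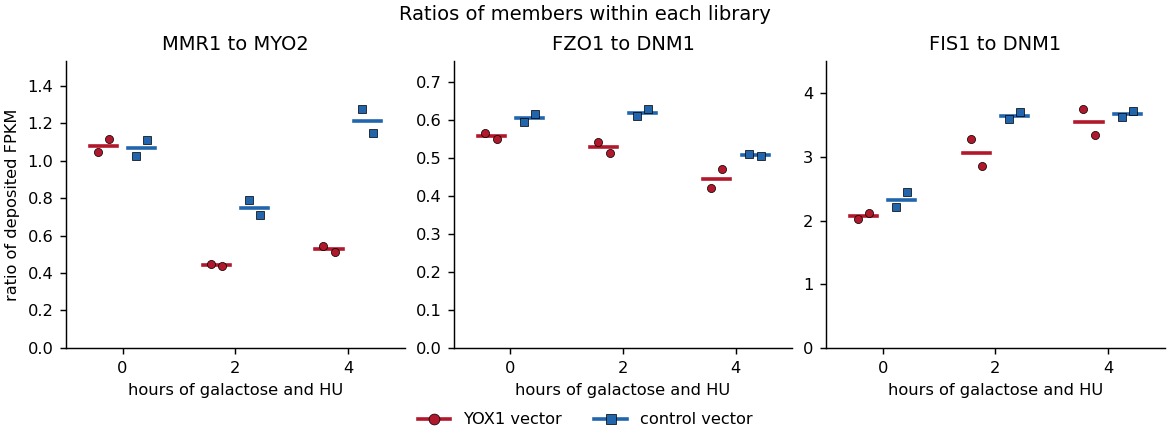
Ratios of FPKM within each library, MMR1 to MYO2, FZO1 to DNM1 and FIS1 to DNM1 (vertical axes), at 0 h, 2 h and 4 h. Each library of the YOX1 vector and the control vector is 1 point. The MMR1 to MYO2 ratio separates the strains most, with 0.544 and 0.512 with the YOX1 vector and 1.28 and 1.15 with the control vector at 4 h.

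The balance of fusion to fission mRNA was also read within libraries. FZO1 to DNM1 was 0.542 and 0.514 at 2 h and 0.420 and 0.470 at 4 h in the YOX1-overexpressing strain, against 0.610 and 0.629 at 2 h and 0.510 and 0.506 at 4 h in the control strain. Before induction it was 0.567 and 0.550 with the YOX1 vector and 0.596 and 0.615 with the control vector, so that the groups already did not overlap at 0 h. MGM1 to DNM1 was 0.587 and 0.562 at 4 h in the YOX1-overexpressing strain and 0.677 and 0.649 in the control strain. These ratios are given as values and were not tested.

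Changes over time were tested in each strain, and the counts called are given below beside those of all genes. In the YOX1-overexpressing strain MMR1 fell at both times relative to 0 h, with log2 changes of -1.07 at 2 h (adjusted p = 0.000123 by limma and Benjamini-Hochberg) and -0.82 at 4 h (adjusted p = 0.000277). In the control strain it fell at 2 h (-0.39, adjusted p = 0.0156) and was higher at 4 h than at 0 h (0.33, adjusted p = 0.0258). The control call at 2 h was lost without control vector replicate 2 of 0 h (-0.36, adjusted p = 0.0852) or of 2 h (-0.26, adjusted p = 0.0855). The control call at 4 h was lost without control vector replicate 1 of 4 h (0.21, adjusted p = 0.151), without replicate 1 (0.29, adjusted p = 0.117) or 2 (0.36, adjusted p = 0.0642) of 0 h, and without scaling between libraries (0.21, adjusted p = 0.136), which moves the median change of all genes at 4 h in that strain to -0.11. Both control calls were also lost with only the control vector libraries compared in the fit (adjusted p = 0.0705 at 2 h and 0.0808 at 4 h). Both changes in the YOX1-overexpressing strain passed in every limma fit that was run.

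The change of MMR1 over 4 h differed between the strains by -1.14 on the log2 scale (adjusted p = 0.00553 by limma and Benjamini-Hochberg), and MMR1 was the 1 of 9 genes for which this test passed, beside 1.96% of all genes tested called lower and 0.523% called higher. Over 2 h the difference was -0.67 (adjusted p = 0.110), and 0 of 9 genes passed, beside 0.639% called lower and 0.102% called higher, although 2 of 9 had an unadjusted p under 0.05 in limma. The vector difference at 4 h minus that at 2 h was -0.47 on the log2 scale and did not pass the test (adjusted p = 0.568), as in 9 of 9 genes, where 0.0871% of all genes were called and 1 of 9 had an unadjusted p under 0.05 in limma. These contrasts share the libraries of 0 h, or of 2 h and 4 h, and are therefore not separate observations.

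FIS1 rose in both strains at both times, and its 2 h and 4 h libraries lay above all 0 h libraries. It was at 135 and 137 FPKM at 0 h, 176 and 164 FPKM at 2 h and 205 and 184 FPKM at 4 h in the YOX1-overexpressing strain. In the control strain it was at 134 and 146 FPKM at 0 h, 195 and 195 FPKM at 2 h and 207 and 195 FPKM at 4 h. Its log2 changes at 2 h and 4 h were 0.35 and 0.63 in the YOX1-overexpressing strain and 0.50 and 0.64 in the control strain, all 4 past the test. The change at 2 h in the YOX1-overexpressing strain lost its call without YOX1 vector replicate 1 of 2 h (0.28, adjusted p = 0.0534 in limma). The ratio of FIS1 to DNM1 was 2.03 and 2.12 at 0 h and 3.76 and 3.34 at 4 h with the YOX1 vector, and 2.21 and 2.45 at 0 h and 3.63 and 3.73 at 4 h with the control vector.

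The fusion genes fell in the YOX1-overexpressing strain. FZO1 changed by -0.29 at 2 h and -0.46 at 4 h there, both past the test, and by -0.11 (not past the test) and -0.26 (past the test) in the control strain. MGM1 changed by -0.33 and -0.48 in the YOX1-overexpressing strain, both past the test, and by -0.09 and -0.16 in the control strain, neither past the test. The control change of MGM1 at 4 h passed without control vector replicate 1 of that time (-0.24, adjusted p = 0.0245) and without scaling (-0.27, adjusted p = 0.0153). The difference of these changes between the strains was itself tested and did not pass for FZO1 (adjusted p = 0.302 at 4 h) or MGM1 (adjusted p = 0.149 at 4 h by limma and Benjamini-Hochberg). All 5 of the called changes of FZO1 and MGM1 passed in each of the 12 limma fits that left out 1 library.

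The remaining time changes were small. NUM1 fell in the YOX1-overexpressing strain at 4 h (-0.29) in every fit, while its call in the control strain (-0.18, adjusted p = 0.0497 in limma) was lost in each of the 12 fits that left out 1 library. The changes there were -0.23 to -0.12. DNM1 fell at 2 h in the YOX1-overexpressing strain (-0.21), a call lost without YOX1 vector replicate 1 of that time (-0.18, adjusted p = 0.0535). Its changes at 4 h in that strain (-0.14) and at 2 h in the control strain (-0.15) kept their calls in 6 and 4 of the 12 fits, over ranges of -0.15 to -0.13 and -0.17 to -0.12. YPT11 fell at 4 h in the YOX1-overexpressing strain (-0.31) and in the control strain (-0.36), and these calls were kept in 6 and 9 of the 12, over ranges of -0.38 to -0.24 and -0.51 to -0.20. MYO2 was the other member that was higher after induction in the YOX1-overexpressing strain, by 0.20 at 2 h and 0.20 at 4 h, calls that were kept in 3 and 7 of the 12 and were lost without scaling (0.17, adjusted p = 0.126 at 2 h, and 0.089, adjusted p = 0.393 at 4 h). MDM36 passed in no time comparison, with changes of -0.15 to 0.00, though its change at 4 h in the YOX1-overexpressing strain passed without scaling (-0.25, adjusted p = 0.00515) and without control vector replicate 1 (-0.15, adjusted p = 0.0432) or 2 (-0.15, adjusted p = 0.0430) of 2 h.

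Counted together, 4 of 9 genes fell and 2 rose at 2 h in the YOX1-overexpressing strain, beside 22.2% and 21.6% of all genes tested, and 6 fell and 2 rose at 4 h, beside 27.0% and 26.4%. In the control strain 2 fell and 1 rose at 2 h, beside 19.3% and 18.4%, and 3 fell and 2 rose at 4 h, beside 26.0% and 25.1%. The counts in the control strain at 4 h were therefore near those of all genes.

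**Figure D4:**
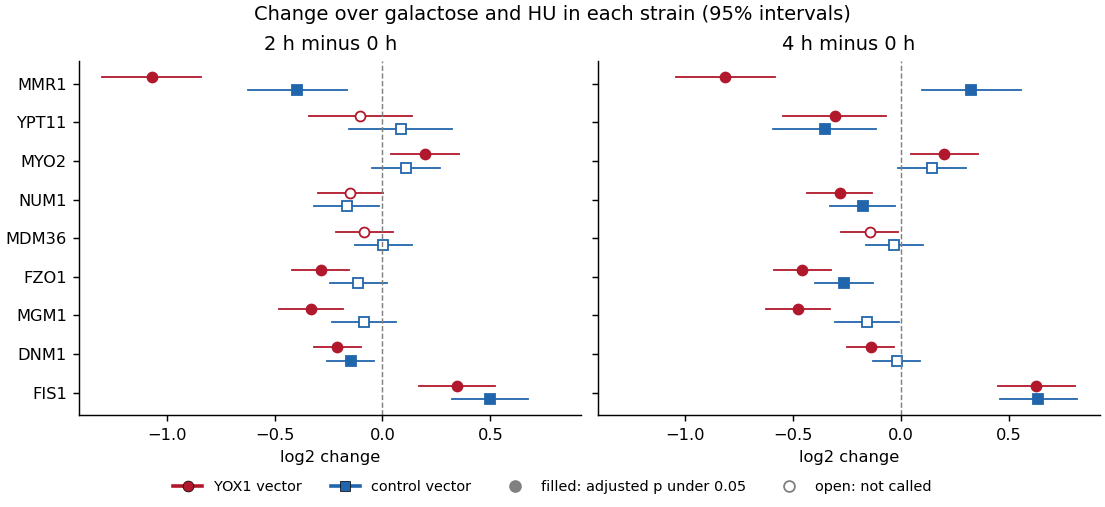
Log2 change in scaled FPKM + 1 against 0 h, at 2 h and at 4 h, of the 9 genes in the YOX1-overexpressing strain and in the control strain, as points with 95% intervals from the limma model. FIS1 lies above 0 in both strains at both times, and MMR1 at 4 h lies at -0.82 in the YOX1-overexpressing strain and at 0.33 in the control strain.

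Another 33 genes of mitochondrial inheritance and morphology were looked at as a list: further fusion and fission factors, the ERMES complex that ties mitochondria to the endoplasmic reticulum, proteins of inner membrane morphology (MDM31, MDM32 and MDM35), the mother retention factor MFB1, partners of Myo2 and its adaptors for other cargo, actin cable proteins and factors that turn adaptors over. At 2 h, 0 of the 33 differed between the strains by limma and Benjamini-Hochberg (1 lower and 2 higher before adjustment, at p under 0.05), beside 1.68% of all genes called lower and 0.261% called higher. At 4 h 1 was lower and 3 were higher, beside 4.31% and 1.92%, and the median log2 difference of the 33 was 0.05 at both times. MDM35, an intermembrane space protein that works with lipid transfer proteins, was at 156 and 152 FPKM in YOX1 vector libraries and at 209 and 191 FPKM in control vector libraries at 4 h (-0.42, adjusted p = 0.0240). That call was lost without scaling (adjusted p = 0.0516). Before induction, MDM35 was higher with the YOX1 vector, by a log2 difference of 0.32 that did not pass the test (adjusted p = 0.636 in limma). Of the 33 genes, 0 were called at 0 h. Before adjustment, 0 were lower and 5 higher there at p under 0.05 in limma, beside 277 lower and 254 higher of all 6887 genes.

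The 3 genes that were higher at 4 h were MDM12, a subunit of ERMES, MLC1, the light chain of Myo2, and MDM30, an F-box protein that marks Fzo1 for degradation. MDM12 was at 31.2 and 28.3 FPKM in YOX1 vector libraries and at 23.1 and 21.4 FPKM in control vector libraries (0.36, adjusted p = 0.0387 in limma). MLC1 was at 373 and 352 FPKM in YOX1 vector libraries, against 273 and 285 FPKM in control vector libraries (0.33, adjusted p = 0.0332). MDM30 was at 27.6 and 28.2 FPKM in YOX1 vector libraries, against 22.8 and 22.4 FPKM in control vector libraries (0.25, adjusted p = 0.0127). The calls of MDM35 and these 3 genes were each lost on leaving out any 1 of the 4 libraries of 4 h, with log2 differences of -0.47 to -0.37 for MDM35, 0.28 to 0.45 for MDM12, 0.28 to 0.39 for MLC1 and 0.25 to 0.25 for MDM30. They were also lost with only the libraries compared in the fit. MDM12 and MLC1 further lost theirs without any 1 control vector library of 0 h or 2 h, and MDM12 without either YOX1 vector library of 2 h. The heavy chain gene MYO2, by comparison, had a log2 difference of 0.04 at 4 h.

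A list of 11 genes of mitochondrial protein import and abundance, among them the outer membrane channel POR1 and the chaperone HSP60, gave 0 calls at 2 h, with 0 at an unadjusted p under 0.05 in limma, and 0 lower and 1 higher at 4 h (TOM22, an import receptor, by a log2 difference of 0.21), beside 4.31% and 1.92% of all genes.

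The profile of MMR1 was most like those of 5 genes, ranked by Pearson r of log2(scaled FPKM + 1) over the 12 libraries among 6107 genes outside the 9. These were SIA1 (r = 0.988), YCR024C-B (0.980), YGP1, a secreted glycoprotein of the cell wall (0.979), CLB2, the major mitotic cyclin (0.973), and PEP4, the vacuolar aspartyl protease (0.968). The 12 points fall into 6 groups of 2, so that r describes these libraries and carries no test. At 4 h, YGP1 was at 119 and 164 FPKM in YOX1 vector libraries, against 976 and 1013 FPKM in control vector libraries. CLB2 was at 25.2 and 20.4 FPKM in YOX1 vector libraries, against 50.9 and 40.0 FPKM in control vector libraries, and SIA1 was at 14.4 and 14.2 FPKM in the YOX1-overexpressing strain, against 24.0 and 22.3 FPKM in the control strain. Because they were chosen for this likeness, their direction at 4 h follows from the choice, and the log2 differences ran from -2.86 for YGP1 to -0.27 for PEP4. Among the other 8 members, r to MMR1 ran from 0.65 for MGM1 to -0.48 for MYO2.

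**Figure D5:**
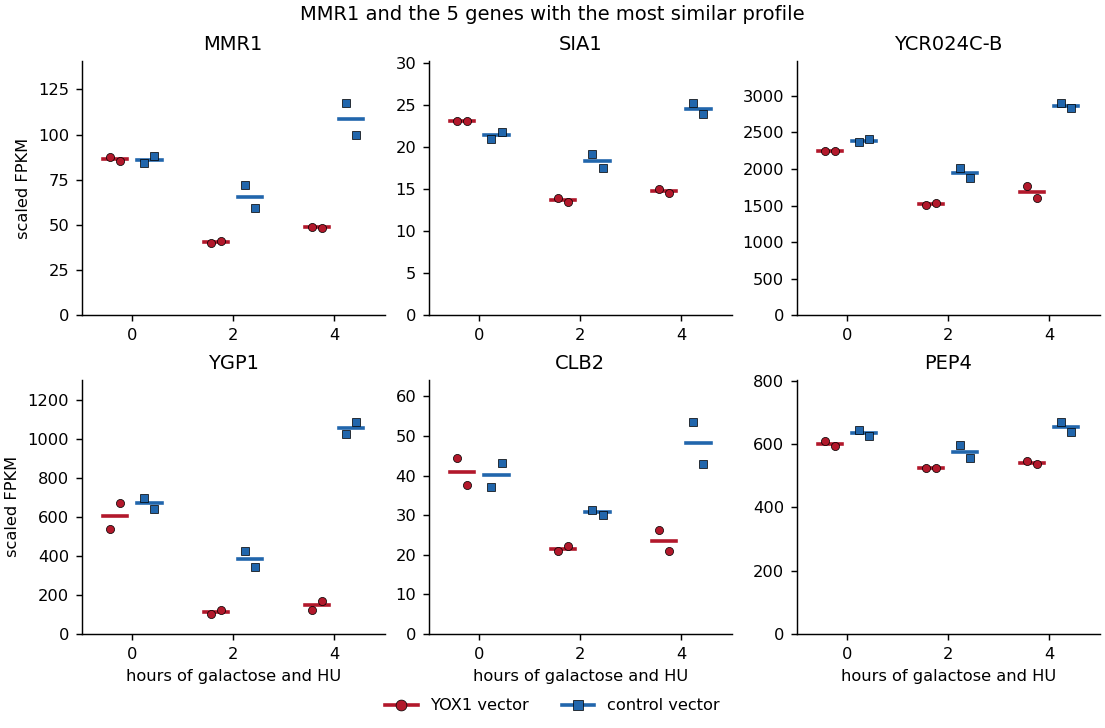
Scaled FPKM of MMR1 and of the 5 genes with the most similar profiles over the 12 libraries, at 0 h, 2 h and 4 h, with 1 point per library for the YOX1 vector and the control vector. In each panel the YOX1 vector libraries at 4 h lie below the control vector libraries, by a log2 difference of -1.14 for MMR1 and -1.004 for CLB2.

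CLB2 belongs to the genes expressed in G2 and M phase, a list that was also counted. Of 5 such genes (CLB2, CDC5, CDC20, SWI5 and BUD4), 2 (CDC20 and SWI5) were called lower with the YOX1 vector at 2 h, beside 1.68% of all genes, and all but CDC5 at 4 h, beside 4.31%. Their median log2 differences were -0.49 at 2 h and -1.004 at 4 h. In the control strain at 4 h relative to 0 h, where MMR1 was higher, 3 of the 5 were called lower and 0 higher, beside 26.0% and 25.1% of all genes. The median change was -0.36, and CLB2 changed by 0.26 without passing the test. Their summed scaled FPKM was 89.9 to 90.2 at 2 h and 97.3 to 109 at 4 h with the YOX1 vector, against 129 to 136 at 2 h and 176 to 207 at 4 h with the control vector. At 0 h it was 206 to 224 with the YOX1 vector, against 222 to 224 with the control vector. CDC20, an activator of the anaphase-promoting complex, was at 5.64 and 5.71 FPKM at 4 h with the YOX1 vector, against 23.7 and 20.6 FPKM in control vector libraries. None of the 5 was at 0 in a library. Of 5 genes of the G1/S transition, 1 was called lower at 2 h and 2 at 4 h, beside 1.68% and 4.31% of all genes. Of 4 genes of daughter cells in G1, 2 were called higher at each time, beside 0.261% and 1.92%. Yox1 itself represses cell cycle genes, so that levels of these lists with the YOX1 vector need not show the stage of the cells. Whether they follow cell cycle stage or YOX1 directly was not tested. The part of a shift in cell cycle stage in the difference of MMR1 was not tested either.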

How the data were processed

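RNA-seq was available for 12 libraries, 2 for each strain and time, grouped by the sample labels. Per the labels and methods, rRNA was depleted, a TruSeq RNA v2 kit was used, which does not keep the strand, and the authors aligned 50-base reads with TopHat2 to sacCer3 and ran Cufflinks, Cuffmerge and Cuffdiff. The deposited values are FPKM per gene and library, each with an interval and a status flag. They are estimates and not counts, so no count test was run. The depth was implied from the intervals, read as 2 SDs on each side.

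Libraries were scaled by the median of their ratios to a geometric mean, taken over the 6585 genes that none lists at 0, with factors of 0.932 to 1.07. Tests used log2(scaled FPKM + 1), on which changes of low genes are understated. Those 6887 genes whose scaled FPKM averaged 1 or more entered limma 3.58.1 (R 4.3.3) with 1 mean per group, a trend and two-sided tests (6 residual and 1.81 prior degrees of freedom). Calls were made at 0.05 on p-values adjusted by Benjamini-Hochberg, separately for the 10 contrasts. The model was tested on simulated data before use. Single-library values in the text are deposited FPKM, and means are scaled FPKM.

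Members and lists were chosen with earlier results of these data known. The genes named were the 9 members, YOX1, pathway genes called between the strains at 2 h or 4 h, and the 5 genes most like MMR1 among those with a mean of at least 10 FPKM, beside marker and cell cycle lists. TOM22, which falls outside that rule, was named after its value was seen. Identifiers of 6030 genes matched release R64, and 99.9% had the same start and end. MDM33 was matched through a RefSeq synonym. Alternatives were other pseudocounts, filters and scalings, a fit to only the libraries compared, robust estimation, a replicate block and leaving out each library.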

Additional observations from a re-analysis of the deposited data

Results flagged for a closer look

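The change of MMR1 over 4 h differed between the strains by a test of that difference: the log2 difference of the changes, YOX1-overexpressing strain minus control strain, was -1.141 (adjusted p = 0.00553 by limma and Benjamini-Hochberg). Both YOX1 vector libraries were below both of their 0 h libraries at 4 h, and both control vector libraries were above theirs. The test passed in all 12 fits that left out 1 library and in all 9 other alternatives. The rise in the control strain taken alone did not keep its call in all of these fits, and without scaling it was 0.21. Between the strains the difference was 0.00 at 0 h and -1.14 at 4 h, so that the flagged value nearly repeats the latter. MMR1 was chosen partly for its lower level with the YOX1 vector in these data, and no explanation for the difference was tested.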

How the results depend on the processing

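With 2 libraries per group the tests rest on a spread shared by all groups. When only the libraries compared were fitted, MMR1 kept its log2 differences of -0.67 at 2 h (adjusted p = 0.197 in limma) and -1.14 at 4 h (adjusted p = 0.0723) without passing, and the members called numbered 0 at 2 h, 0 at 4 h, 1 and 2 for the control strain at 2 h and 4 h, and 3 and 5 for the YOX1-overexpressing strain. All genes called between strains then numbered 10 at 0 h, 46 at 2 h and 72 at 4 h, against 2, 134 and 429, with 1730 for the change at 2 h in the YOX1-overexpressing strain (3018), 22 and 98 for the differences of change over 2 h and 4 h (51 and 171), and 1 for the change of the vector effect (6). That last count was also 1 with a pseudocount of 0.1, with upper-quartile scaling and with a replicate block, and the count at 0 h was 1 with a filter of 10 FPKM.

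Leaving out 1 library gave MMR1 differences of -0.029 to 0.039 at 0 h, -0.81 to -0.53 at 2 h and -1.25 to -1.02 at 4 h. Members called ranged over 0 to 1 at 2 h, 1 to 3 and 2 to 4 for the control strain at 2 h and 4 h, and 3 to 6 and 5 to 8 for the YOX1-overexpressing strain. All genes called ranged over 2 to 22 at 0 h, 72 to 169 at 2 h, 210 to 461 at 4 h, 13 to 65 and 83 to 212 for the differences of change, and 1 to 16 for the change of the vector effect.

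Signs changed only for member values that were not called. Without scaling these became 0.026 for MYO2, 0.027 for NUM1 and 0.011 for FZO1 at 0 h, 0.017 for MDM36 at 2 h and 0.0079 for DNM1 at 4 h between strains, and -0.0175 for MDM36 in the control strain at 2 h. With upper-quartile scaling they became 0.0006 for MDM36 at 2 h between strains, and 0.017 for MDM36 and 0.030 for DNM1 in the control strain at 4 h. Leaving out 1 library, between strains, gave -0.078 to 0.054 for MYO2, -0.066 to 0.043 for NUM1 and -0.039 to 0.26 for YPT11 at 0 h, -0.0056 to 0.052 for DNM1, -0.083 to 0.050 for MDM36 and -0.053 to 0.063 for NUM1 at 2 h, and -0.083 to 0.014 for DNM1 and -0.18 to 0.0037 for FIS1 at 4 h. In the control strain it gave -0.066 to 0.24 for YPT11 and -0.063 to 0.070 for MDM36 at 2 h, and -0.070 to 0.028 for DNM1 at 4 h. For the differences of change it gave -0.042 to 0.075 for NUM1 over 2 h, and -0.10 to 0.082 for FIS1, -0.0099 to 0.12 for MYO2 and -0.10 to 0.20 for YPT11 over 4 h. For the change of the vector effect it gave -0.090 to 0.052 for FZO1, -0.092 to 0.041 for MDM36, -0.15 to 0.0037 for MGM1 and -0.094 to 0.031 for MYO2. The cause of these changes was not tested.

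Replicate numbers were shared across groups, and deviations of same-numbered libraries correlated by -0.12 to 0.42 over 15 group pairs, 5 of them over 0.1. The correlation was 0.41 between the strains at 4 h and 0.42 between 2 h and 4 h in the YOX1-overexpressing strain. It was 0.29 between the YOX1 vector at 2 h and the control vector at 4 h. The main fits did not take the numbers as pairs, and whether a shared replicate effect was present at 4 h was not tested. With the replicate block MMR1 was called at 2 h (adjusted p = 0.0167) and at 4 h, and the calls of MYO2 at 2 h in the YOX1-overexpressing strain (adjusted p = 0.0518) and of NUM1 at 4 h in the control strain (adjusted p = 0.0648) were lost. Without scaling the median change of all genes at 4 h was -0.11 in the control strain, and the share of calls that were lower between strains at 4 h was 52.8%, against 69.2%.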
